A study of Homo sapiens with 16 samples.

Results

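The caspase-1 locus and its pyroptosis partners were followed in clones of MDA-MB-231, a human triple-negative breast cancer cell line. The set is 6 of the 14857 genes listed in the deposited table: CASP1, CARD16 and CASP4 at one locus on chromosome 11, and PYCARD, GSDMD and IL18. All 6 were found by symbol. They were picked for their levels in clones with tristetraprolin (TTP) against clones with an empty vector (EV). For that contrast their values are therefore a description with no test, and tests are given for differences between clones of one arm.

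RNA of 16 cultures was sequenced, 4 libraries from each of 4 stably transfected clones. TTP_H3 and TTP_E11 carried a TTP plasmid, and EV_B and EV_A carried the empty vector. All 4 clones carried a tet-off system, which keeps the plasmid gene silent while doxycycline is present, and all were kept under G418 and hygromycin. Per the labels, the TTP cells were also kept in doxycycline at 2 µg/mL, and this drug and the selection drugs were removed for 24 h or more before an experiment. Each line is 1 clone, so differences between the arms rest on 2 clones against 2 and include clonal differences. Clones were taken from the library names, because 7 of the 8 libraries named TTP have titles that call them EV. ZFP36, the gene of TTP, averaged 14370 ± 811 normalized counts in TTP_H3 and 10480 ± 337 in TTP_E11, against 222.1 ± 8.8 in EV_B and 258.6 ± 26.3 in EV_A (SD, n = 4 each).

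A normalized count is a read number divided by 1 size factor per library. The libraries held between 14380767 and 22066098 reads on the listed genes. Replicate 3 of TTP_H3 and replicate 4 of EV_B lay farthest from the other 3 libraries of their clones, with root mean square differences of 0.320 and 0.293 on the log2 scale. The other 14 libraries lay between 0.216 and 0.262. VIM and CD44, which this mesenchymal line is known to express, were measured in all libraries at means of at least 10050 normalized counts per clone. EGFR, listed with them, averaged at least 6063. The log2 changes in TTP against EV were -0.52 for VIM, -0.55 for CD44 and 0.18 for EGFR. Of 3 receptors listed as low in triple-negative lines, 1 was measured. It was ERBB2, with clone means from 2173 to 2862 and a log2 change of 0.31. PTPRC, the defining marker of white blood cells, is not analysed here.

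Pyroptosis is a lytic form of cell death that follows inflammasome assembly. A sensor recruits the adaptor ASC, the product of PYCARD, which clusters pro-caspase-1 through its caspase recruitment domain (CARD). Active caspase-1 cleaves gasdermin D, whose amino-terminal part opens pores in the plasma membrane, and matures interleukin-18 and interleukin-1β. Caspase-4 is the human sensor of lipopolysaccharide in the cytosol and cleaves gasdermin D without ASC. CARD16 encodes a CARD close to that of caspase-1 and can hold back caspase-1 assembly. The pathway is best known from macrophages, and epithelial cells are known to use caspase-4, gasdermin D and interleukin-18. TTP binds AU-rich elements in mRNAs, many of them from inflammatory genes, and recruits the enzymes that degrade them.

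CASP1 and CARD16 start with nearly the same coding sequence, which bears on how their reads can be told apart. The first 120 coding bases of each, on GRCh38 from GENCODE 29 transcripts, are shown 5′ to 3′ with the 2 bases that differ in capitals. Both genes lie on the minus strand, and each stretch spans an intron.
CASP1, chr11:105034362-105035113: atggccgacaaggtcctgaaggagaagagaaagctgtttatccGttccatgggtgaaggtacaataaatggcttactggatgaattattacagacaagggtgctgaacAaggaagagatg
CARD16, chr11:105044546-105045297: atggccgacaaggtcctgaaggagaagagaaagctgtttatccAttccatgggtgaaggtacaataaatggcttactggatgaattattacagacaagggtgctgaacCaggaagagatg
Over the first 252 coding bases the pair was 99.2% identical, with the same 2 differences. The CASP1 coding sequence runs to 1215 bases and that of CARD16 to 594. Of the distinct stretches of 100 bases in annotated CARD16 transcripts, 52 of 1706 (3.05%) also occur in CASP1, as do 52 of 4481 (1.16%) in the other direction. For CASP4 the number shared with the other genes of the locus was 0. A read from the shared stretches could be given to either gene, so the split of such reads between CASP1 and CARD16 is uncertain.

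CASP1, the inflammatory caspase (chromosome 11, 105025443 to 105035250), was near the limit of detection in EV clones and plainly present in TTP clones. Replicates 1 to 4 of TTP_H3 held 41.38, 45.82, 112.7 and 59.58 normalized counts, and those of TTP_E11 held 50.15, 48.06, 57.19 and 79.26. The EV_B libraries held 0, 2.118, 0 and 0.9403, and the EV_A libraries 3.618, 0, 1.732 and 0.8876. Every TTP library stood above every EV library: the lowest TTP value was 41.38 and the highest EV value 3.618. In reads, TTP_H3 had 260 and TTP_E11 had 239, against 3 in EV_B and 6 in EV_A. A count of 0 in a library allows up to 3 reads there. The ratio of all TTP to all EV reads, scaled by the size factors, was 56.6, with an exact 95% interval of 29.6 to 124 that covers counting error only. On the log2(normalized count + 1) scale, which understates changes of genes with few reads, the difference was 5.002 ± 0.302 (SE). This SE, like those of the other genes of the set, reflects the spread between cultures of a clone. It leaves out the spread between clones. The authors' deposited table gives a log2 fold change of 5.80.

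CARD16, the decoy beside it (chromosome 11, 105041326 to 105101431), had the same division between the arms at a lower read number. The 4 libraries of TTP_H3 held 51.47, 58.42, 66.83 and 42.43 normalized counts, and those of TTP_E11 held 30.09, 28.45, 38.43 and 36.87. In EV_B the values were 0, 2.118, 0.9513 and 1.881, and in EV_A they were 0, 0, 0.866 and 0. EV_A thus had 1 read in all and EV_B 5, against 216 in TTP_H3 and 136 in TTP_E11. The scaled ratio of TTP to EV reads was 59.8 (exact 95% interval 27.2 to 164), and the log2 difference was 4.81 ± 0.274 (SE). The gene overlaps CARD17 and the pseudogene CASP1P2 on the same strand, so some of its reads may belong to them. Both CASP1 and CARD16 had EV means below 9.68 normalized counts, the smallest mean over the 16 libraries in the table, so they are listed through their reads in TTP clones.

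CASP4, the lipopolysaccharide sensor (chromosome 11, 104942866 to 104969436), was well expressed in all clones. TTP_H3 held 1024, 997.7, 989.6 and 996.6 normalized counts and TTP_E11 held 911.5, 909.3, 959.7 and 965.9. EV_B held 335.6, 347.3, 358.7 and 365.8, and EV_A held 310.0, 340.7, 303.1 and 348.8. The arms did not overlap, and replicates of a clone lay close together: the SD was 15.3 around a mean of 1002 in TTP_H3 and 13.2 around 351.8 in EV_B. The ratio of means was 2.86, and the log2 difference was 1.52 ± 0.0391 (SE).

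IL18, the cytokine that caspase-1 matures (chromosome 11, 112143251 to 112164117), lies several megabases from the caspase locus. Its 4 values were 298.8, 247.4, 235.4 and 281.6 normalized counts in TTP_H3 and 376.1, 360.0, 334.2 and 350.2 in TTP_E11. They were 129.8, 181.1, 148.4 and 112.8 in EV_B and 167.6, 140.2, 148.9 and 127.8 in EV_A. All TTP libraries stood above all EV libraries, and all TTP_E11 libraries above all TTP_H3 libraries. The ratio of TTP to EV means was 2.15, and the log2 difference was 1.09 ± 0.0788 (SE). Taken by clone, the log2 difference from EV was 1.30 in TTP_E11 and 0.88 in TTP_H3, a spread that the SE leaves out.

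PYCARD, the ASC adaptor (chromosome 16, 31201485 to 31203450), and GSDMD, the pore former (chromosome 8, 143553207 to 143563062), differed far less. PYCARD held 243.2, 268.1, 223.4 and 224.8 normalized counts in TTP_H3 and 216.9, 207.0, 193.0 and 229.5 in TTP_E11. It held 193.7, 185.3, 157.9 and 122.2 in EV_B and 189.4, 211.6, 181.0 and 192.6 in EV_A. The arms overlapped, since replicate 2 of EV_A at 211.6 exceeded replicates 2 and 3 of TTP_E11. GSDMD held 860.9, 892.4, 886.8 and 852.1 in TTP_H3 and 813.7, 866.1, 866.8 and 909.7 in TTP_E11. It held 729.6, 659.7, 696.4 and 690.2 in EV_B and 767.1, 738.0, 738.7 and 769.5 in EV_A, with no overlap between the arms. The ratios of TTP to EV means were 1.26 for PYCARD and 1.20 for GSDMD, and the log2 differences were 0.34 ± 0.0761 and 0.26 ± 0.0339 (SE).

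**Figure D1:**
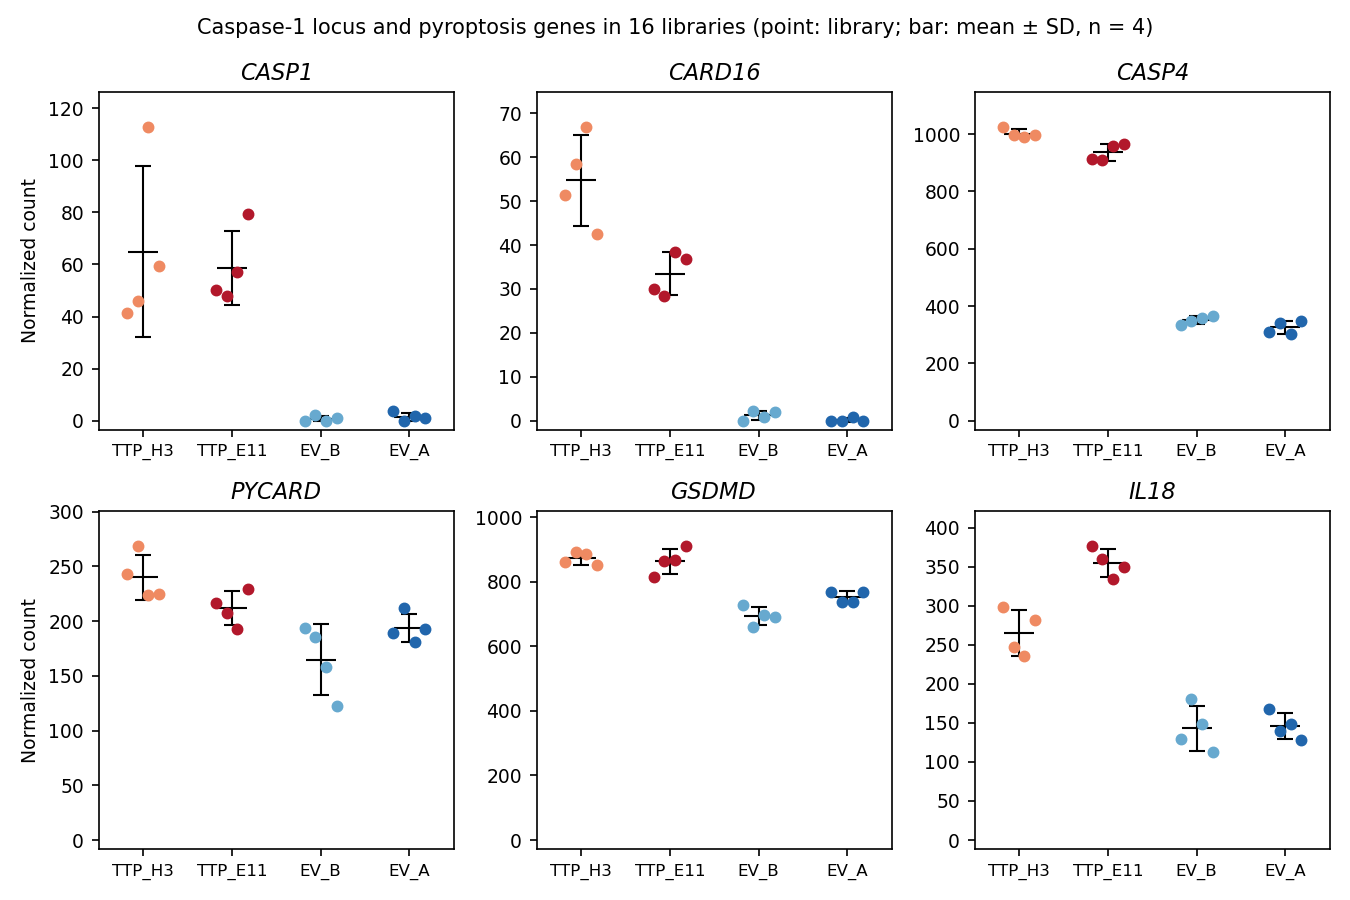
Normalized counts (linear y axes from 0) of the 6 genes in TTP_H3, TTP_E11, EV_B and EV_A; each point is 1 library and bars are mean ± SD (n = 4). CASP1 and CARD16 lie near 0 in both EV clones, CASP4 forms 2 separate levels, IL18 has its highest values in TTP_E11, and PYCARD overlaps between the arms.

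Taken over the set, 5 of the 6 genes had every TTP library above every EV library, a pattern that 15.6% of all listed genes showed. PYCARD was the exception. Since the genes were picked on this contrast, nothing is read from this count. The median log2 difference was 1.304 over the 6 genes and 0.001 over all listed genes. The set thus splits into a pair near absence in EV clones (CASP1 and CARD16), a pair with intermediate ratios (CASP4 and IL18) and a pair with small ones (PYCARD and GSDMD). In bulk RNA, fewer cells with a transcript and less of it per cell cannot be told apart.

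Levels were compared between genes only per kilobase of the annotated transcript. GSDMD and CASP4 were the most abundant of the set in TTP clones, with 485 and 464 normalized counts per kilobase in TTP_H3 and 480 and 434 in TTP_E11. In EV clones GSDMD was still at 386 in EV_B and 419 in EV_A, whereas CASP4 was at 163 and 151, below PYCARD at 166 and 196. CARD16 stood at 79.9 in TTP_H3 and 48.8 in TTP_E11, and CASP1 at 32.4 and 29.3, so the catalytic caspase was the least abundant of the 6 on this scale in TTP clones. IL18 was at 232 in TTP_H3, 310 in TTP_E11, 125 in EV_B and 127 in EV_A.

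The contrast between the TTP clones was tested for each gene, since the members were not picked on it directly. A choice on TTP against EV may still favour genes whose clones agree within an arm, so the counts here are a description. By limma with Benjamini-Hochberg adjustment over all listed genes, 1 of 6 passed in TTP_H3 against TTP_E11, while 11.7% of all listed genes did. That gene was IL18, which was lower in TTP_H3, at 265.8 ± 29.4 normalized counts against 355.1 ± 17.6 in TTP_E11 (SD, n = 4 each). Its log2 difference was -0.42, with a 95% interval of -0.65 to -0.19 and an adjusted p of 0.0121. ZFP36 differed between the same clones in the other direction, by 0.45 on the log2 scale (adjusted p = 1.71e-06), and its part in the IL18 difference was not tested. CARD16 averaged 54.79 ± 10.4 in TTP_H3 and 33.46 ± 4.92 in TTP_E11, and each TTP_H3 library exceeded each TTP_E11 library. The call on it depended on the tool: the limma adjusted p was 0.274 (log2 difference 0.69, interval -0.10 to 1.48), while edgeR gave 0.0231 and DESeq2 0.0430. These tools called 12.6% and 12% of all listed genes in this contrast.

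CASP1 averaged 64.88 ± 32.8 normalized counts in TTP_H3 and 58.67 ± 14.3 in TTP_E11 (SD, n = 4 each). The log2 difference was 0.06, with an interval of -0.82 to 0.93 (limma adjusted p = 0.958), which leaves room for sizeable differences in either direction. It was -0.25 without replicate 3 of TTP_H3, which held the highest CASP1 value and was the library farthest from its clone. CASP4 was bounded more tightly, at 0.10 with an interval of -0.01 to 0.21 (limma adjusted p = 0.276). PYCARD differed by 0.18 (interval -0.04 to 0.40, limma adjusted p = 0.312). GSDMD differed by 0.02 (interval -0.08 to 0.11, limma adjusted p = 0.884).

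Between the EV clones, 0 of the 6 genes passed by limma in EV_B against EV_A, while 36.8% of all listed genes did. CASP1 and CARD16, with 9 and 6 EV reads in all, could hardly pass, so nothing is read from the 0. At an unadjusted limma p under 0.05 there were 4 (CARD16, CASP4, PYCARD and GSDMD), as for 44.8% of all listed genes. After adjustment edgeR called 1, GSDMD, with 36.8% of all listed genes, and DESeq2 called 0, with 35.6%. GSDMD averaged 694 ± 28.6 in EV_B and 753.3 ± 17.3 in EV_A, a log2 difference of -0.12 (limma adjusted p = 0.0508; edgeR adjusted p = 0.0403). PYCARD averaged 164.8 ± 32.2 in EV_B and 193.6 ± 13 in EV_A, a difference of -0.25 (limma adjusted p = 0.0663). CASP4 differed by 0.11 (limma adjusted p = 0.110) and IL18 by -0.05 (limma adjusted p = 0.784). CASP1 and CARD16 had too few EV reads for a clone difference to be resolved, with limma adjusted p-values of 0.394 and 0.102. The limma count was 3 without replicate 1 of EV_B (CARD16, PYCARD and GSDMD), where 5170 of the 14857 listed genes passed. It was 2 without replicate 3 of TTP_H3 (PYCARD and GSDMD), where 6006 of the 14857 passed.

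**Figure D2:**
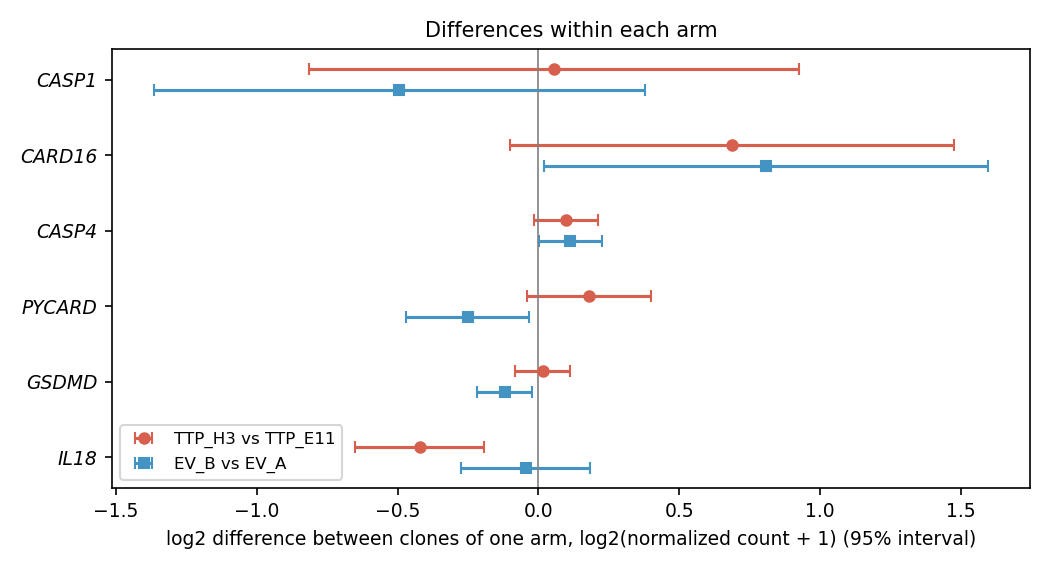
Log2 differences of the 6 genes between clones of one arm (x axis, log2(normalized count + 1) scale; bars are 95% intervals), with circles for TTP_H3 against TTP_E11 and squares for EV_B against EV_A. IL18 at -0.42 in TTP_H3 against TTP_E11 is the difference that passed adjustment, and the intervals of CASP1 and CARD16 are the widest.

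The other genes of the pathway were read from lists of 74 symbols, of which 45 were measured. The lists include DFNA5 and DFNB59, older names of GSDME and PJVK. In TTP against EV, 21 were higher, 18 lower and 6 did not pass by limma, with 12 higher and 11 lower in each of the 4 pairings of a TTP clone with an EV clone. Over all listed genes, 19% were higher and 19.5% lower in each pairing. Among all listed genes 35.4% were higher and 34.6% lower, so the lists moved in both directions with a median log2 change of 0.05. When the reads of each clone were first added up, leaving 2 values per arm, edgeR called 8 higher and 9 lower. Of all listed genes it called 14.8% higher and 14.6% lower in that fit. The adaptors and regulators, other caspases and interleukin-1 family genes given with values below were picked on this contrast. They had passed in all 4 pairings and were chosen for the size of their change. Their p-values for TTP against EV therefore restate that choice and are not separate tests. The lists themselves were chosen with earlier results of these data known. Counts and p-values of every list, sensors and gasdermins included, thus describe these libraries and are not independent tests.

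Of the inflammasome sensors, which start caspase-1 assembly, 6 of 12 were measured, 5 were higher in TTP clones and 1 was lower. These are shares of 83.3% and 16.7% in a small list, against 35.4% and 34.6% of all listed genes. NLRP1, a sensor of protease activity and other stress, averaged 952.4 ± 35 normalized counts in TTP_H3 and 920 ± 85.1 in TTP_E11, against 553.8 ± 34.3 in EV_B and 675.5 ± 42.6 in EV_A (log2 change 0.61, limma adjusted p = 1.82e-14). NLRP3, the sensor of ion flux and membrane damage, averaged 92.82 ± 16.3 and 68.13 ± 3.37 in the same TTP clones, against 52.78 ± 7.88 in EV_B and 31.63 ± 5.97 in EV_A. Its log2 change was 0.95 (limma adjusted p = 8.94e-09). NLRP2 was mainly high in TTP_H3, with 207.7 ± 25.6 there and 58.06 ± 8.11 in TTP_E11, against 43.52 ± 4.74 in EV_B and 44.7 ± 2.28 in EV_A (log2 change 1.29, limma adjusted p = 2.6e-13). IFI16, a nuclear DNA sensor, was higher by 0.42 on the log2 scale (limma adjusted p = 1.97e-13). AIM2, a cytosolic DNA sensor, averaged 118.9 ± 4.28 in TTP_H3 and 123.3 ± 8.94 in TTP_E11, against 44.41 ± 9.82 in EV_B and 107 ± 6.46 in EV_A. Against EV_A alone its change was 0.18 (limma adjusted p = 0.172). CARD8, which like NLRP1 is held in check by DPP9, was lower by -0.49 (limma adjusted p = 4.59e-09). With reads summed per clone, the edgeR adjusted p was 0.115 for NLRP2, 0.0586 for NLRP3 and 0.278 for AIM2.

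Of the adaptors and regulators, 12 of 16 were measured, with 5 higher, 6 lower and 1 not passing. The shares were 41.7% higher and 50% lower, against 35.4% and 34.6% of all listed genes. DPP9, the protease that restrains NLRP1 and CARD8, averaged 3035 ± 107 in TTP_H3 and 2807 ± 29.7 in TTP_E11, against 4477 ± 125 in EV_B and 4512 ± 69.7 in EV_A (log2 change -0.62, limma adjusted p = 2.81e-21). SERPINB1 and SERPINB9, inhibitors known to act on inflammatory caspases or granzyme B, were lower by -0.72 and -0.57 (limma adjusted p = 4.5e-06 and 1.83e-12). SERPINB1 averaged 1037 in TTP_H3 and 1192 in TTP_E11, against 1541 in EV_B and 2202 in EV_A. For SERPINB9 the means were 446.4, 525.2, 607.3 and 852.2 in that order. Libraries of the arms overlapped for these genes, and against EV_B alone the changes were -0.45 and -0.33. SERPINB9 did not pass with reads summed per clone (edgeR adjusted p = 0.0604). CARD6, a CARD protein, was higher by 0.62, and TRIM31, a ubiquitin ligase known to act on NLRP3, by 1.73 (limma adjusted p = 3.53e-09 and 3e-06). TRIM31 was a gene of few reads, at 25.52 ± 8.75 in TTP_H3 and 22.58 ± 6.27 in TTP_E11, against 7.952 ± 3.51 in EV_B and 6.21 ± 4.16 in EV_A.

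Of the other caspases, 7 of 10 were measured, and 4 were higher, 2 lower and 1 did not pass. That is 57.1% higher and 28.6% lower, against 35.4% and 34.6% of all listed genes. CASP10, an initiator caspase of death receptors, averaged 164.5 ± 14.3 in TTP_H3 and 165.8 ± 4.58 in TTP_E11, against 83.12 ± 12.2 in EV_B and 97.71 ± 9.01 in EV_A (log2 change 0.87, limma adjusted p = 1.81e-11). The other 6 of these caspases changed by between -0.32 and 0.18 on the log2 scale, against 1.52 for CASP4. CASP5, which lies between CASP4 and CASP1, is not analysed here.

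Of the other gasdermins and genes of membrane rupture and repair, 8 of 13 were measured, with 3 higher, 3 lower and 2 not passing. Each share of 37.5% was near those of all listed genes, at 35.4% higher and 34.6% lower. GSDME, the gasdermin cut by caspase-3, averaged 1061 ± 46.7 in TTP_H3 and 1174 ± 48.5 in TTP_E11, against 1039 ± 30.5 in EV_B and 1025 ± 23.8 in EV_A. Its log2 change was 0.11 (limma adjusted p = 0.0022), and it did not pass with reads summed per clone (edgeR adjusted p = 0.316). GSDMB averaged 17.13 ± 7.08 in TTP_H3 and 23.5 ± 3.7 in TTP_E11, against 14.96 ± 3.53 in EV_B and 18.71 ± 5.41 in EV_A, which did not pass (limma adjusted p = 0.313).

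Of the interleukin-1 family, 6 of 15 genes were measured, with 1 higher, 4 lower and 1 not passing. In this small list that is 16.7% higher and 66.7% lower, against 35.4% and 34.6% of all listed genes. IL18BP, the secreted antagonist of interleukin-18, was the one higher gene, at 143.7 ± 11.9 in TTP_H3 and 130.4 ± 8.46 in TTP_E11, against 78.26 ± 12.9 in EV_B and 85.65 ± 12.5 in EV_A (log2 change 0.75, limma adjusted p = 7.4e-09). IL1R1, the signalling receptor of interleukin-1, was lower by -0.62, and SIGIRR, a negative regulator of this receptor family, by -1.01 (limma adjusted p = 6.38e-11 and 2.03e-08). IL1R1 averaged 215.4 in TTP_H3 and 184.1 in TTP_E11, against 256.7 in EV_B and 363.4 in EV_A. For SIGIRR the means were 46.34, 41.86, 68.77 and 117.7 in that order. Libraries of the arms overlapped for these genes, and against EV_B alone the changes were -0.37 and -0.60. IL1A, IL1B, IL33 and the receptor genes IL18R1 and IL18RAP are not analysed here. Of the transcription factors, 6 of 8 were measured, with 3 higher, 2 lower and 1 not passing. Their shares were 50% higher and 33.3% lower, against 35.4% and 34.6% of all listed genes.

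**Figure D3:**
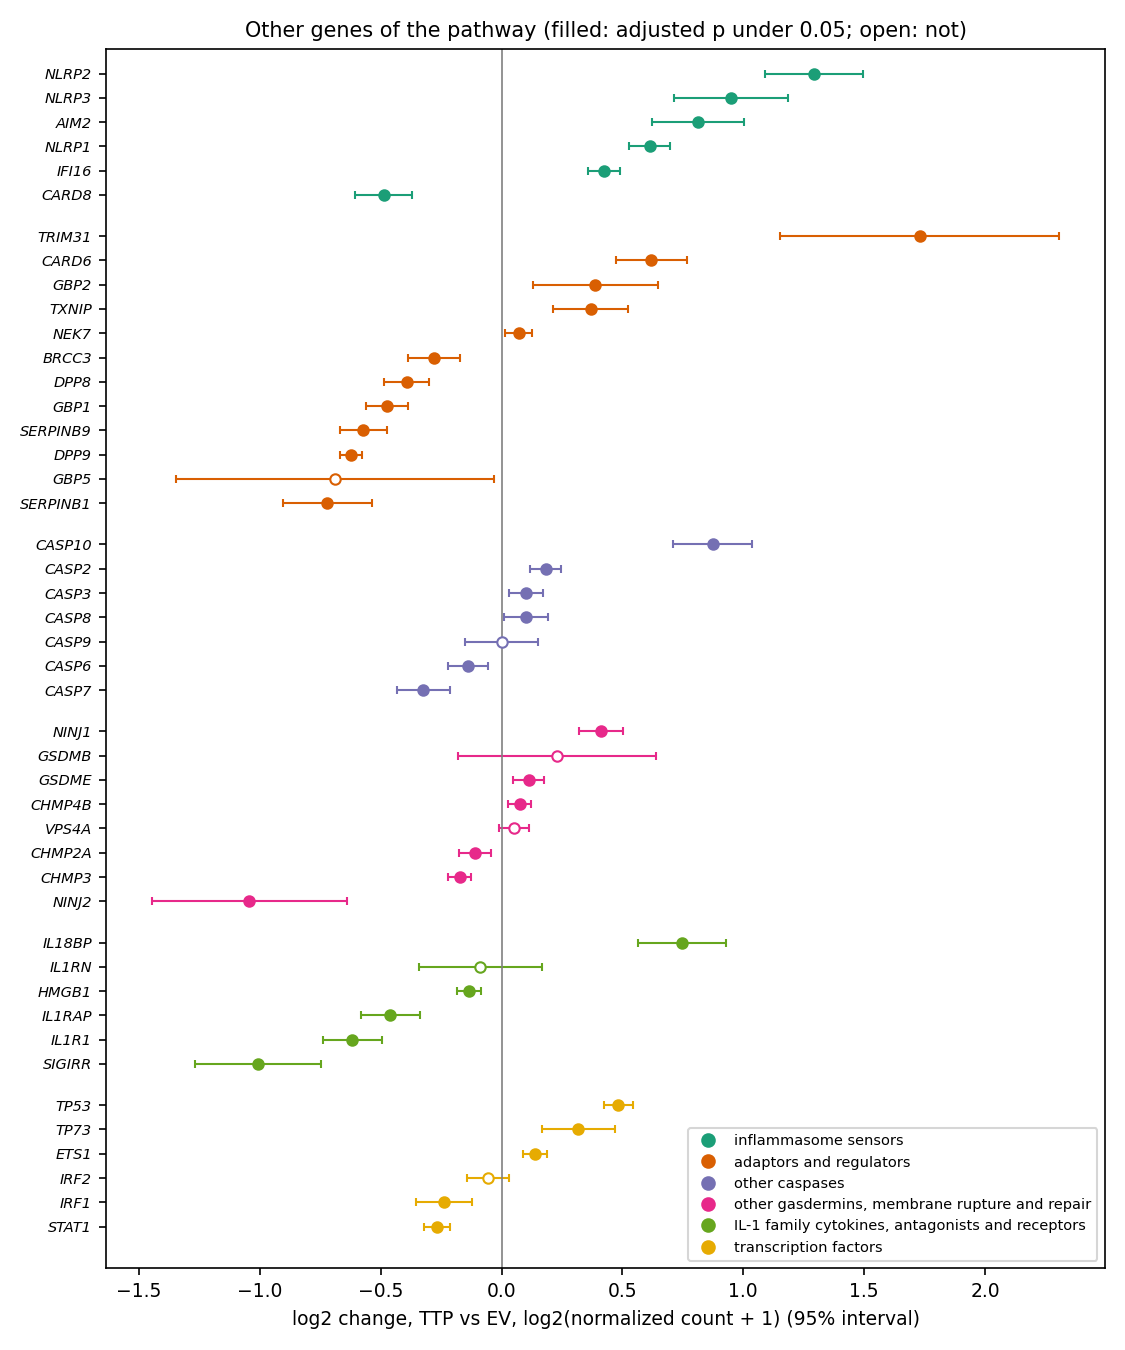
Log2 change in TTP against EV (x axis, log2(normalized count + 1) scale) of the 45 measured pathway genes outside the set, grouped by list, with 95% intervals; filled points passed limma's adjusted threshold and open ones did not. Sensors lie mostly right of 0, interleukin-1 family genes mostly left, and the other lists on both sides. The sensor and interleukin-1 lists hold only 6 measured genes each, so nothing is read from their sides. The intervals leave out the spread between clones.

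Markers of immune cells were counted as well. Of 16 markers 5 were measured (CD14, LYZ, CD68, CSF1R and LAPTM5), and 2 of them, CSF1R and LAPTM5, were lower in TTP clones while 3 did not pass. Of all listed genes, 34.6% were lower in this contrast. The summed level of the 5 was between 272.3 and 460.4 normalized counts in TTP libraries, below the range of 519.1 to 676.3 in EV libraries. LAPTM5 made up most of the sum, with clone means of 293.2 in TTP_H3 and 217.2 in TTP_E11, against 441.8 in EV_B and 422.0 in EV_A. All libraries came from cultures of MDA-MB-231 clones, and any part of immune cells in the levels of the 6 genes was not tested.

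At the locus, 7 caspase and CARD genes are annotated side by side on chromosome 11 (CASP12, CASP4, CASP5, CASP1, CARD16, CARD17 and CARD18), and the table lists 3 of them, all in the set. The fourth listed protein-coding gene among 10 annotated within 1 Mb of CASP1 is MSANTD4, at a distance of 960.4 kb. It averaged 587.5 ± 36 normalized counts in TTP_H3 and 593.3 ± 35.4 in TTP_E11, against 563.5 ± 10.7 in EV_B and 571.2 ± 20.8 in EV_A, and did not pass (log2 change 0.06, limma adjusted p = 0.216). Within 5 Mb of CASP1, members aside, 30 genes were listed, of which 11 were higher, 7 lower and 12 not passing, with a median log2 change of 0.02. The share higher was 36.7%, against 35.4% of all listed genes, and the share lower was 23.3%, against 34.6%. With reads summed per clone, edgeR called 7 higher and 3 lower, where 14.8% of all listed genes were higher and 14.6% lower. Among these 30, only MMP1 and MMP3 had a log2 change of 1 or more in either direction. They are named for that size, so their p-values restate the choice and are not separate tests. MMP1, a collagenase gene 2227.3 kb from CASP1, averaged 7384 ± 2780 in TTP_H3 and 5450 ± 202 in TTP_E11, against 201.2 ± 74.9 in EV_B and 42.33 ± 8.24 in EV_A (log2 change 6.09, limma adjusted p = 1.34e-12). MMP3, a stromelysin gene 2181.6 kb from it, changed by 1.89, but by 0.93 against EV_B alone (limma adjusted p = 0.0916). The rest of the 30 had log2 changes between -0.73 and 0.94.

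**Figure D4:**
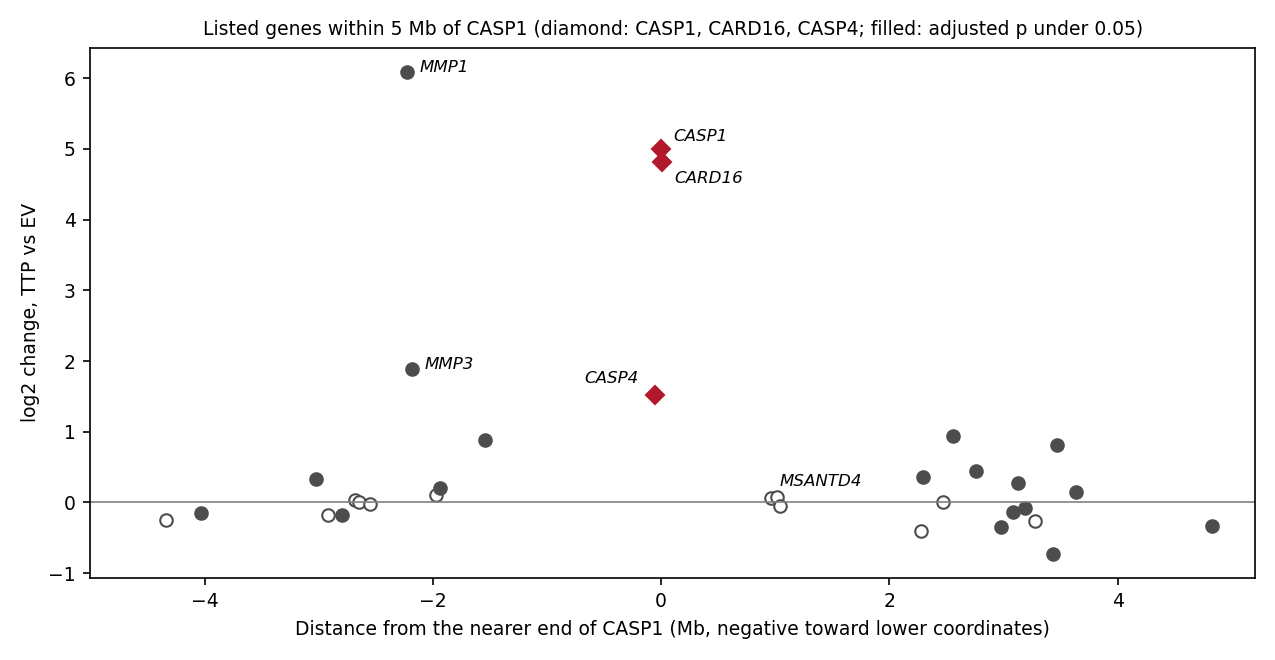
Log2 change in TTP against EV (y axis, log2(normalized count + 1) scale) of listed genes by distance from CASP1 in megabases (x axis); diamonds are CASP1, CARD16 and CASP4, shown as a description, and circles are the 30 other genes, filled where limma's adjusted p was under 0.05. CASP1 and CARD16 at 5.002 and 4.81 and CASP4 at 1.52 stand above MSANTD4 at 0.06, and MMP1 at 6.09 lies 2227.3 kb away.

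Leaving out the other members, the genes whose profile over the 16 libraries was most like that of CASP1 were ranked by the root mean square difference between log2 values centred per gene. They were CCDC184 (0.664), ZFP36 (0.700), CDC42EP5 (0.717), NKX2-1 (0.729) and CCND2 (0.778). The member CARD16 stood at 0.738, closer than CCND2. NKX2-1, a homeobox transcription factor, averaged 41.47 in TTP_H3 and 40.66 in TTP_E11, against 0.2378 in EV_B and 0 in EV_A. CDC42EP5, an effector of the GTPase Cdc42, averaged 125.4 and 111.5 in the same TTP clones, against 6.991 in EV_B and 7.469 in EV_A. CCND2, a D-type cyclin, averaged 187.3 and 196.8, against 5.173 in EV_B and 5.012 in EV_A. The likeness was chosen on the division between the arms and describes these libraries.

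The annotated 3′ UTRs of the 6 genes were searched for TATTTAT, read with U for T in the RNA, a core of the AU-rich elements that TTP is known to bind, on the transcript strand and with overlapping matches counted. None of the 6 held it, while 3893 of 12410 listed genes with an annotated 3′ UTR did (31.4%). The members' 3′ UTRs were short, at 750 bases for CASP1, 74 for CARD16, 113 for CASP4, 100 for PYCARD, 158 for GSDMD and 345 for IL18, against a median of 998 over the genes searched. The search covers the letters of 1 annotated transcript per gene and says nothing of binding.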

How the data were processed

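Per the submitters' processing notes, reads were handled with Trimmomatic 0.36, STAR 2.5.2b, featureCounts, Subread 1.5.2 and DESeq2 on GRCh38, with no settings given here. The authors deposited 1 table of 14857 genes whose signal per library is, by its values, a read count divided by a size factor. Per the file headers, the authors' own comparison is in the deposited table too, as log2 fold changes with a p-value and its adjusted form. In each library 100% of values were whole multiples of the smallest, within 0.001, which recovers the reads. In TTP_H3 replicates 1 and 3 a read was worth 1.009 and 0.9975, so normalized counts and reads are nearly the same there. The labels' protocols do not state whether strand was kept, so reads of PYCARD and IL18 cannot be told from those of PYCARD-AS1 and AP002884.3 on the opposite strand.

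The test was limma 3.58.1 (R 4.3.3), fitted to log2(value + 1) with trend and robust options, with all 16 libraries in 1 fit of 4 clone groups, no filter, and Benjamini-Hochberg adjustment over all genes at 0.05. It was tested on simulated data. Replicates are cultures of a clone, so p-values, SEs and intervals do not cover the spread between clones. As alternatives, recovered reads were tested with edgeR 4.0.16, also summed per clone, and with DESeq2 1.42.0, and limma was run with other scalings, pseudocounts and filters, single control clones, a replicate block and leaving out libraries. Positions and transcripts came from GENCODE 29, which held 14820 of the genes.

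The members and lists were chosen with earlier results of these data known. Named with values were the 6 members, ZFP36, pathway genes that passed in all 4 single contrasts of clones with a log2 change of at least 0.5, measured sensors and gasdermins, genes within 1 Mb of CASP1, those within 5 Mb with a change of at least 1, and the 5 genes outside the set most like CASP1.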

Additional observations from a re-analysis of the deposited data

Results flagged for a closer look

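Over 124 sets of 4 libraries (31 named genes in 4 clones), 8 had 1 library far from the other 3 by Dixon's criterion. Chance gives about 1 in 20 for values from a normal distribution. That rate does not hold where 1 library has 1 read and the others 0, which is always flagged. CARD16, CCDC184 and NKX2-1 below are such sets, and sets with 0 in every library cannot be flagged. Among the 6 genes of the set this was CARD16, at 0.866 normalized counts in replicate 3 of EV_A, which is 1 read, while the other 3 libraries were at 0. In TTP_H3, replicate 3 held SERPINB9 at 385.0 (the others 461.3 to 474.4), IL1R1 at 250.4 (201.9 to 206.7) and MMP1 at 11560 (5928 to 6076). GSDME was at 989.8 in replicate 3 of EV_A (the others 1035 to 1039), and MMP3 at 23.82 in replicate 1 of TTP_E11 (31.28 to 32.37). CCDC184 at 1.206 in replicate 1 of EV_A and NKX2-1 at 0.9513 in replicate 3 of EV_B were 1 read each.

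For 7 of the 31 named genes the level differed between TTP_H3 and TTP_E11, by limma with adjustment over all genes. This is the contrast between the TTP clones given above, which 11.7% of all listed genes passed. The level was lower in TTP_H3 for IL18 by -0.42 on the log2 scale (adjusted p = 0.0121). It was also lower for SERPINB9 (-0.24, adjusted p = 0.019) and GSDME (-0.15, adjusted p = 0.0279). It was higher in TTP_H3 for NLRP2 (1.82, adjusted p = 3.01e-11), ZFP36 (0.45, adjusted p = 1.71e-06), CARD6 (0.34, adjusted p = 0.024) and DPP9 (0.11, adjusted p = 0.0226). Against EV, DPP9 fell less in TTP_H3 (-0.57) than in TTP_E11 (-0.68), and SERPINB9 fell more (-0.69 and -0.45).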

How the results depend on the processing

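Over 45 results and 1171 alternatives, 3 results changed sign in 8 alternatives, and 0 of these changes had a passing test on either side. Leaving out 1 library at a time, CASP1 in TTP_H3 against TTP_E11 (0.06) lay between -0.246 and 0.229, negative without replicate 1 or 2 of TTP_E11 or replicate 3 of TTP_H3. GSDMD in that contrast (0.02) lay between -0.013 and 0.041, negative without replicate 1 of TTP_E11. IL18 in EV_B against EV_A (-0.05) lay between -0.166 and 0.06, positive without replicate 1 of EV_A or replicate 4 of EV_B. Without both libraries that stood apart, CASP1 was at -0.246 and IL18 at 0.06 in these contrasts. The number of the 6 genes that passed in TTP_H3 against TTP_E11 was 1 by limma and 2 by edgeR and by DESeq2, the added one being CARD16, and 1 to 1 when 1 library was left out. Of the 14857 listed genes, limma called 1735 there, edgeR 1866 and DESeq2 1790. With 1 library left out, limma called 1118 to 2261. In EV_B against EV_A the number of the 6 genes that passed was 0 by limma, and 0 to 3 when 1 library was left out. It was 1 with edgeR, with TMM scaling, with a mean of at least 20 normalized counts (GSDMD each time) and with a pseudocount of 0.1 (CARD16). Of the 14857 listed genes, 5468 passed there with edgeR, 5436 with TMM scaling and 5457 with a pseudocount of 0.1. With the filter at 20 it was 5392 of 13448, and with 1 library left out 4808 to 6006. With reads summed per clone, pathway genes higher were 8, against 21 by limma, and lower 9, against 18. Neighbours higher were 7, against 11, and lower 3, against 7. The log2 difference of CASP1 was 3.40 at a pseudocount of 5, 6.63 at 0.1, 5.74 by edgeR and 5.89 by DESeq2. That of CARD16 was 3.07, 6.80, 5.93 and 6.14. IL18 in TTP_H3 against TTP_E11 stayed between -0.48 and -0.37 when 1 library was left out (limma adjusted p 0.00321 to 0.0444). TRIM31 and GSDMB have no value with the filter at 20. Depth limits what can be said of CASP1 and CARD16 in EV clones, which had 9 and 6 reads in all.

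Same-numbered libraries of different clones did not deviate together (correlations of -0.0587 to 0.0614 over 24 pairs, 0 above 0.1), so the numbers share only a name. With the replicate number as a block, 5238 genes were higher and 5116 lower in TTP against EV, compared with 5261 and 5144 without it, and 2 of 16 libraries were closest to their own number. The block left 1 and 0 of the 6 genes passing within the arms, 21 pathway genes higher and 18 lower. Of all listed genes, 1688 passed with it in TTP_H3 against TTP_E11 and 5420 in EV_B against EV_A.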
